A study of Rattus norvegicus with 12 samples.

Results

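The mitochondrial ribosomal proteins are described here as the protein-coding genes whose symbol starts with Mrpl or Mrps followed by a digit. This rule took 75 of the 32545 genes in the table, with 73 different symbols, since Mrpl53 and Mrpl36 are each listed at 2 loci. Of the 75, 73 had a mean of at least 0.5 FPKM (read counts scaled by gene length and by a factor for each library) over the 12 libraries and were tested among 13910 genes. The other 2 were the second loci of Mrpl53, listed at 0 in all 12 libraries, and of Mrpl36, which had 1 read in 1 library. The small subunit was represented by 26 tested genes and the large subunit by 46. The tested gene left over, Mrps36, encodes a component of the 2-oxoglutarate dehydrogenase complex in spite of its name, and was kept apart from both subunits. A pseudogene of the same symbol pattern (1 gene) was not a member.

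Sprague-Dawley (SD) rats underwent fistula surgery between the abdominal aorta and the inferior vena cava (volume overload, VO) or a sham operation on postnatal day 1 (P1). RNA of the LV- and RV-free wall was sequenced at P7, with 3 libraries in each of the groups sham LV, VO LV, sham RV and VO RV. All 4 groups therefore had surgery and were of 1 age, and the comparisons asked how the ventricles differed and how each responded to VO. The labels do not say whether the 3 libraries of a group came from separate animals, so p-values measure only the spread between these libraries.

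The mitochondrial ribosome translates the messages encoded by mitochondrial DNA, all of which are subunits of the respiratory chain and ATP synthase. Its RNAs are made in the organelle, whereas all of its proteins are encoded in the nucleus, made in the cytosol and imported. About the time of birth, the heart turns from glycolysis to fatty acid oxidation, and its mitochondria grow in number and content.

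Of the 73 symbols, 59 had a promoter entry in RefSeq on build GRCr8, which covers 250 bases before to 50 after the gene's start. A total of 3 motifs of factors known to bind promoters of mitochondrial genes were searched on both strands with no mismatch. Motifs can share end letters, such as the GCG with which the YY1 motif ends and the NRF1 motif begins. The ETS motif CCGGAAGT was held by 8 of the 59 (13.6%), against 4.99% of all 19005 promoters and 8.16% of those of tested genes. The YY1 motif AAGATGGCG was held by 9 (15.3%, against 2.29% and 3.87%), and the NRF1 motif GCGCATGCG by 5 (8.47%, against 2.03% and 3.37%). At least 1 of the 3 was held by 21 members (35.6%, against 8.71% and 14.3%). These shares describe letters in a window and not binding. Of the 2 members called below, Mrps18c and Mrpl13, Mrpl13 had no entry. The following 4 promoters are those of Mrps18c, of Mrps21 and Mrpl3, which passed only an unadjusted threshold, and of Mrpl46, which shares its start region with another member, Mrps11. Motif letters are in capitals and on either strand.
Mrps18c (chr14:9122857-9123156, minus strand): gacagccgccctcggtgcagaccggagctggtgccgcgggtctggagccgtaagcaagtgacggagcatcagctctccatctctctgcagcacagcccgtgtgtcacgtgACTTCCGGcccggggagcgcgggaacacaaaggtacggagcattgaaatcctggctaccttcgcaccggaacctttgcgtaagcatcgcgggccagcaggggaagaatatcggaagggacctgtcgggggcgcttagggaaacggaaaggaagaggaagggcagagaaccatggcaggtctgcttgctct
Mrpl3 (chr8:114548720-114549019, plus strand): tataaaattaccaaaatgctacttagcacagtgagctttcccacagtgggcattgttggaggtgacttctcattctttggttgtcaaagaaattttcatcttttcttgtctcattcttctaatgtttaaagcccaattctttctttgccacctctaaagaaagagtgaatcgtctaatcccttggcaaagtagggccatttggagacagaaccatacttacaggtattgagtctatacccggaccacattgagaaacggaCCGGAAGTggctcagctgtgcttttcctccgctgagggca
Mrps21 (chr2:186103302-186103601, minus strand): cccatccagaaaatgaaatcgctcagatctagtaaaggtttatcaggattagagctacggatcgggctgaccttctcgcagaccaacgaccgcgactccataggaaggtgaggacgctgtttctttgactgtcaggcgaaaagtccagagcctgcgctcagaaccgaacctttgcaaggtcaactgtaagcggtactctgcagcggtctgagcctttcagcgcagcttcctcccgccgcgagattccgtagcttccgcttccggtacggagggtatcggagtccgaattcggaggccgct
Mrpl46 (chr1:142116981-142117280, minus strand): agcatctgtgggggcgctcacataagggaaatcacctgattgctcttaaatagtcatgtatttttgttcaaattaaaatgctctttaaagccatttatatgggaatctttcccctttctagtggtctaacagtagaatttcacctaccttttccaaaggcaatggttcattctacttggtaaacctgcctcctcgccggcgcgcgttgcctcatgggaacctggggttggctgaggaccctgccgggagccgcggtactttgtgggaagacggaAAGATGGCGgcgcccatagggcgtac

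The promoters of Mrps18c and Mrpl3 each held 1 ETS motif and that of Mrpl46 held 1 YY1 motif, whereas that of Mrps21 held none of the 3. In the coordinates of the deposited table, whose build is not given in the sources used here, Mrpl46 and Mrps11 lie head to head on chromosome 1 with 72 bases between their starts. In all, 16 of the 73 members (21.9%) had a protein-coding neighbour on the other strand whose start lay within 1000 bases, against 8.53% of the 12837 tested protein-coding genes. Mrps12, a protein of the decoding centre, starts 16 bases from Sars2, which encodes the mitochondrial seryl-tRNA synthetase, and Mrps18c starts 84 bases from Helq. The members lay on 18 chromosomes, with 12 on chromosome 1 and 11 on chromosome 10.

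Most members were expressed at moderate and even levels. The median of their mean levels was 37.2 FPKM, against 7.98 FPKM over all tested genes. A total of 63 members lay between 10 and 100 FPKM, 6 lay under 10 and 4 over 100. The highest was Mrpl33, a short large-subunit protein, with a mean of 327 FPKM and a gene length of 236 bases. It was followed by Mrpl54 (124 FPKM), Mrpl12 (113 FPKM), which forms the stalk where translation factors dock, Mrpl17 (112 FPKM) and Mrpl28 (93.3 FPKM). By mean, the lowest were Mrpl30 (3.83 FPKM), Mrpl1 (4.41 FPKM), Mrpl36 (5.04 FPKM), Mrps2 (7.69 FPKM) and Mrpl47 (7.73 FPKM). Mrpl53, with a mean of 9.26 FPKM, lay between 0.977 and 2.35 FPKM in all libraries but sham RV replicate 2 (92.4 FPKM), which also held the highest value of Mrpl36 (31.1 FPKM). Between 46875 and 58597 reads per library lay on the members.

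The members also varied little between libraries. Their median coefficient of variation over the 12 libraries was 12.1%, against 16.7% over all tested genes, and it was under 20% in 64 of the 73, against 60.3% of all tested genes. In 8 members, the highest library exceeded the lowest by more than 2-fold, namely Mrpl1, Mrpl30, Mrpl36, Mrpl42, Mrpl49, Mrpl53, Mrps10 and Mrps28. The most even was Mrpl35, with a coefficient of variation of 5.37%.

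**Figure D1:**
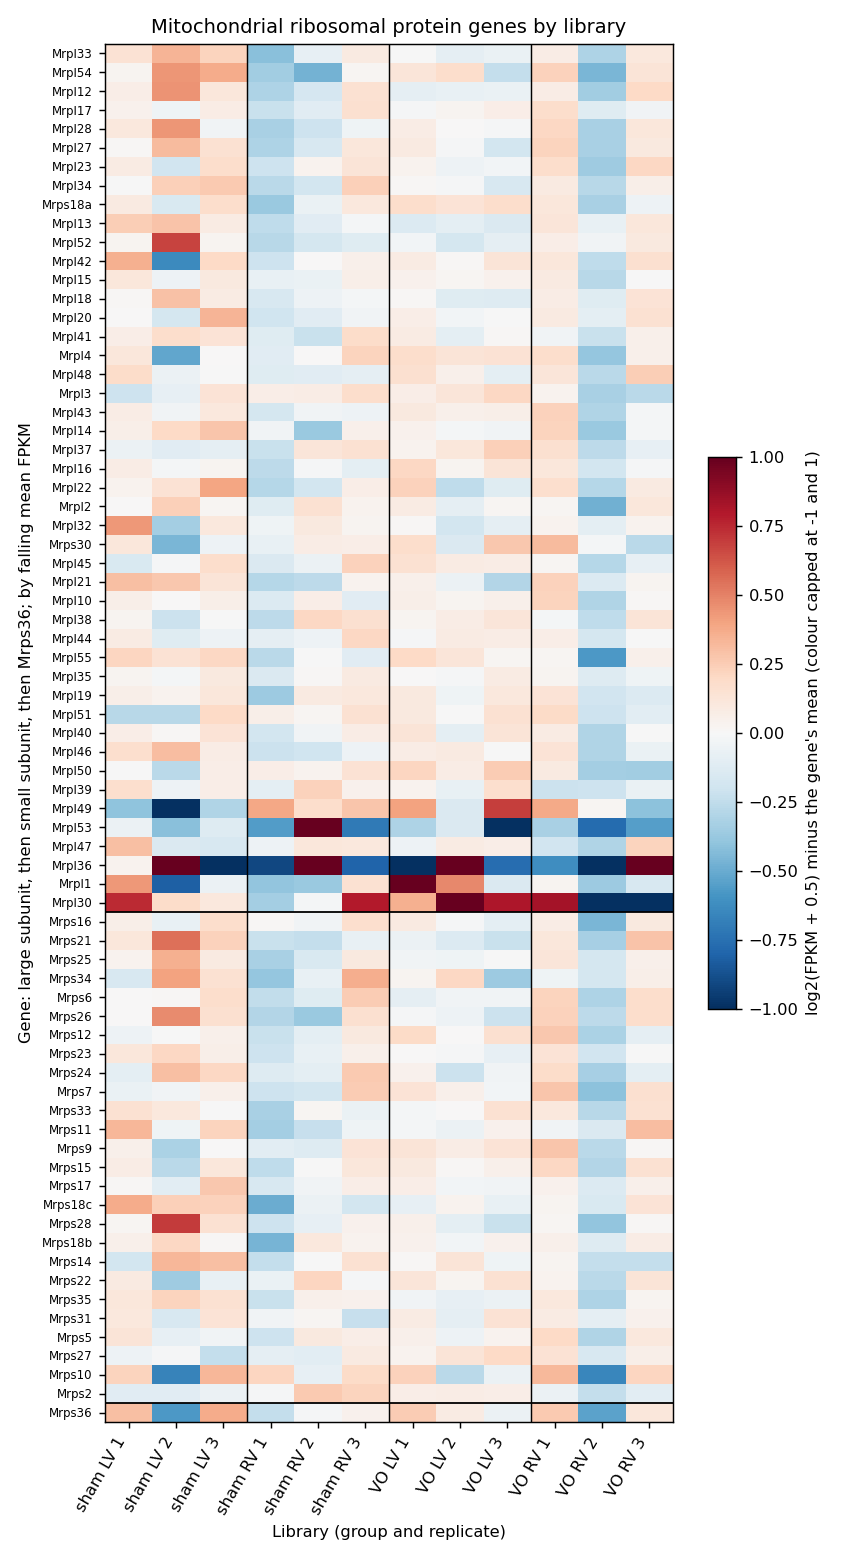
Heat map of the 73 tested members (rows, large subunit, small subunit and Mrps36, each by falling mean FPKM) in the 12 libraries (columns). Colour gives log2(FPKM + 0.5) minus the gene's mean and is capped at -1 and 1; the columns of sham RV replicate 1 and VO RV replicate 2 are blue in 67 and 72 of the 73 rows.

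The summed level of the members spread more widely in the RV than in the LV groups, with 1 low library in each RV group. The 73 members summed to 3588 ± 88.7 FPKM in sham LV and 3327 ± 88.1 in VO LV, and to 3181 ± 345 in sham RV and 3268 ± 471 in VO RV (SD, n = 3). By library the sums were 3486, 3638 and 3641 FPKM in sham LV and 3428, 3288 and 3266 in VO LV. In the RV they were 2816, 3227 and 3500.3 FPKM in the sham group and 3606, 2729 and 3468 under VO. The lowest of all were sham RV replicate 1 and VO RV replicate 2. Each RV group overlapped every other group, whereas all 3 sham LV libraries lay above all 3 VO LV libraries.

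In sham RV replicate 1, 67 of the 73 members lay below their own mean over the 12 libraries, and in VO RV replicate 2, 72 did. In the other libraries, between 9 and 48 did. These 2 libraries were also the RV libraries with the highest atrial markers, whose 5 genes summed to 1065 and 4559 FPKM, against 212 to 311 FPKM in the other 4 RV libraries. None of the 5 was at 0, and the LV libraries had 706 to 1729 FPKM. Fibroblast markers (7 genes) summed to 3583 and 4854 FPKM in the 2 libraries, against 2023 to 2989 FPKM in the other 10. Cardiomyocyte markers (8 genes, none at 0, as the myocardium of the label requires) summed to 17561 FPKM in sham RV replicate 1 and 14888 in VO RV replicate 2, against 18401 to 22919.6 FPKM in the rest. Their part in the members' levels was not tested. In bulk RNA, fewer cells of a type and less RNA per cell cannot be told apart.

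**Figure D2:**
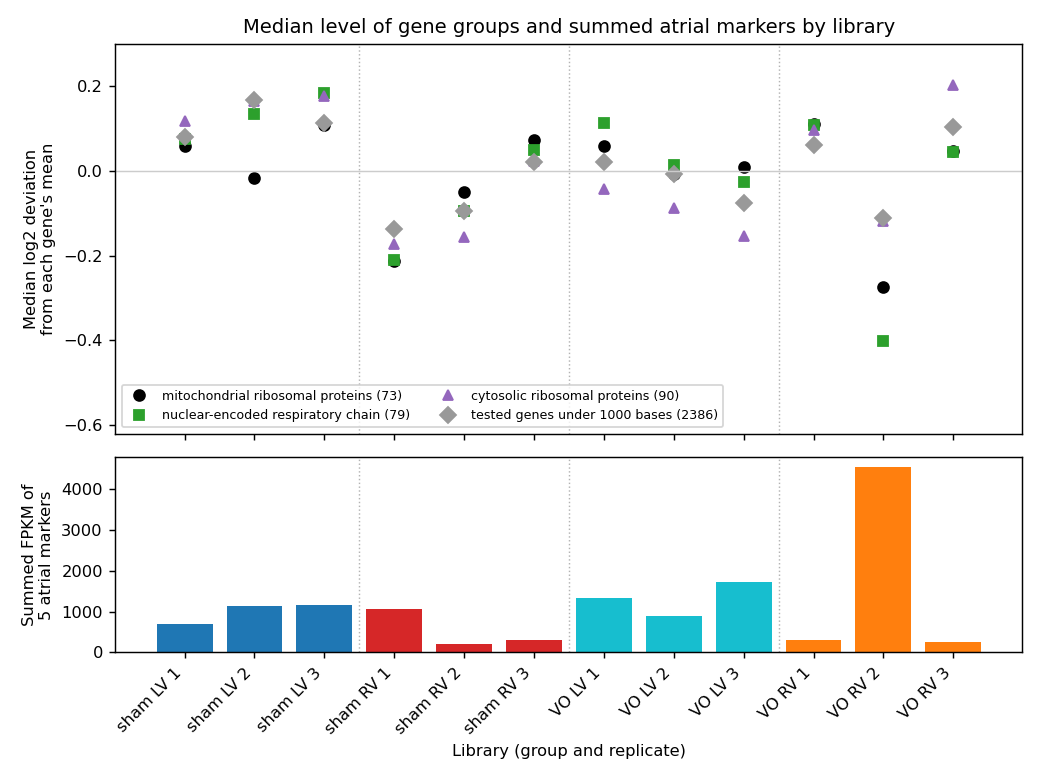
Upper panel, median deviation of each gene group from its genes' 12-library means (log2) in each library. Lower panel, summed FPKM of 5 atrial markers; the members were lowest in sham RV replicate 1 (-0.21) and VO RV replicate 2 (-0.27), where the atrial markers were the highest of each RV group.

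The sums of the 2 subunits kept a narrow ratio. The large-subunit genes summed to 2489 ± 53.2 FPKM in sham LV and 2314 ± 59.1 in VO LV, and to 2207 ± 238 in sham RV and 2257 ± 318 in VO RV (SD, n = 3). The small-subunit genes summed to 1061 ± 42.2, 975.2 ± 25.9, 940.2 ± 108 and 975.7 ± 144 FPKM in the same order. The ratio of the sums lay between 2.28 and 2.46 in every library, with group means of 2.35 ± 0.048 (sham LV), 2.37 ± 0.021 (VO LV), 2.35 ± 0.093 (sham RV) and 2.32 ± 0.032 (VO RV). The VO LV libraries lay above the VO RV libraries, and the other pairs of groups overlapped. Without Mrpl53 and Mrpl36, whose high values in sham RV replicate 2 gave the ratio of 2.46, the ratios lay between 2.27 and 2.39, and the VO LV libraries (2.37 ± 0.024) lay above those of sham RV (2.30 ± 0.021) and VO RV (2.31 ± 0.035).

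**Figure D3:**
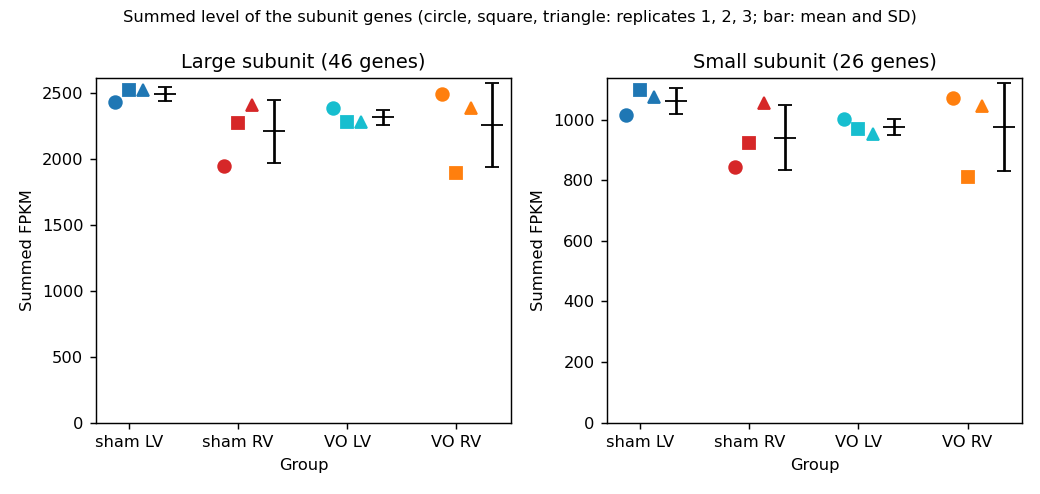
Summed FPKM of the 46 large-subunit genes (left) and the 26 small-subunit genes (right) by group. Circles, squares and triangles are replicates 1, 2 and 3 and bars are the mean and SD; sham LV has the highest mean in both panels, and the RV groups spread widely, with 1 low library each.

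To see how the ventricles differed without overload, sham LV was compared with sham RV. Most members were slightly higher in the LV when all libraries were used, and 1 of them was a DEG (a differentially expressed gene, with more than 1.3-fold change and an adjusted p below 0.05 by the Benjamini-Hochberg method). On the log2(FPKM + 0.5) scale, on which all fold changes below are given, the median of the 73 was 0.11, and 55 (75.3%) were higher in the LV. The median over all tested genes was 0.01, with 51.6% higher. Without sham RV replicate 1, the members' median was 0.01, as that of all tested genes, and without sham RV replicate 3 it was 0.18. The 1 DEG compares with 3.86% of all tested genes called (537 genes). This background itself rested on single libraries, and was 0 genes without sham RV replicate 1, between 1 and 5 without sham LV replicate 1 or 2, sham RV replicate 2 or VO LV replicate 2, 173 and 185 without VO LV replicate 1 and sham RV replicate 3, and 870 without VO RV replicate 3. With the same fold change and an unadjusted p below 0.05 (the unadjusted threshold), 6 members (8.22%) passed, 5 higher and 1 lower, against 17.8% of all tested genes. The 3 libraries of each group did not overlap in 18 members (24.7%), 16 higher and 2 lower, against 32.2% of all tested genes, so that all 3 shares of members lay under those of all genes. The order was the reverse at the unadjusted threshold without sham RV replicate 3, when 18 members (24.7%) and 20.9% of all tested genes passed. Without sham LV replicate 1, 10 members (13.7%) passed, which still lay under the 17.5% of all tested genes. Markers of other cell types also differed between these groups without overlap. Endothelial markers (5 genes) summed to 429 to 484 FPKM in sham LV and 300.4 to 336 in sham RV, macrophage markers (7 genes) to 108 to 121 and 80.4 to 92.3, and fat markers (5 genes, of which 4 had a mean under 1 FPKM) to 813 to 1100 and 451 to 533. None of these genes was at 0 throughout, and their part in the members' fold changes was not tested.

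The DEG was Mrps18c, one of 3 mitochondrial relatives of the bacterial ribosomal protein S18, listed on chromosome 14 from 10440691 to 10446909 on the minus strand. It had 42.3, 38.7 and 38.5 FPKM in sham LV and 23.0, 31.3 and 28.7 FPKM in sham RV. The highest sham RV library lay below the lowest sham LV library. The log2 fold change was 0.53 (SE 0.12, limma adjusted p = 0.0387), and the two-sided exact permutation test gave p = 0.1, the smallest that 3 against 3 libraries allow. Leaving out sham RV replicate 1 lowered the log2 fold change to 0.40 (limma adjusted p = 0.138), and over the 12 libraries left out in turn the adjusted p ran from 0.0288 to 0.138. It stayed under 0.05 without VO LV replicate 3 or any 1 of the VO RV libraries, and passed 0.05 without any 1 of the other 8. With all libraries, the adjusted p by limma also passed 0.05 with the replicate number as a block (0.0809), only the groups compared (0.0699), all genes above 0 (0.0655) and the gene-length trend removed (0.0606). The other relatives, Mrps18a, which sits in the large subunit, and Mrps18b, had log2 fold changes of 0.15 (SE 0.14) and 0.19 (SE 0.13) and did not pass (limma adjusted p = 0.524 and 0.374).

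Other small-subunit and large-subunit proteins lay higher in sham LV without passing the adjusted threshold. Mrps21, a small-subunit protein with a bacterial relative, had 79.4, 108 and 86.3 FPKM in sham LV and 62.8, 62.0 and 69.6 in sham RV, with a log2 fold change of 0.48 (SE 0.15, limma adjusted p = 0.0871, but 0.0422 without VO RV replicate 2 and 0.0432 with array weights). Its groups did not overlap. Mrpl21 of the large subunit had 35.9, 35.2 and 32.0 FPKM against 23.8, 24.2 and 29.8, with no overlap (log2 0.40, SE 0.13, limma adjusted p = 0.0819). Mrpl54 had the highest log2 fold change in this comparison, 0.55 (SE 0.20, limma adjusted p = 0.12).

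The lowest fold changes were those of Mrpl53, Mrpl49 and Mrpl36. Mrpl49, a large-subunit protein without a bacterial relative, had 8.56, 5.21 and 9.22 FPKM in sham LV and 15.1, 13.0 and 14.02 in sham RV (log2 -0.87, SE 0.26, limma adjusted p = 0.0731). All 3 LV libraries lay below all 3 RV libraries, on 43 to 67 and 94 to 127 reads. Mrpl49 overlaps Syvn1 on the other strand, and without a stated strand setting their reads cannot be told apart; Syvn1 had 8.69, 10.3 and 8.21 FPKM in sham LV and 7.00, 8.01 and 9.42 in sham RV. Mrps2, the relative of bacterial S2 and the other member lower without overlap, had 7.03, 7.04 and 7.31 FPKM against 7.60, 9.27 and 9.04 (log2 -0.26, SE 0.094, limma adjusted p = 0.122).

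The values of Mrpl53 and Mrpl36 turned on single libraries. Mrpl53 had 92.4 FPKM (472 reads) in sham RV replicate 2 and between 0.977 and 2.35 FPKM (6 to 13 reads) in the other 11 libraries. Mrpl36 had 31.1 FPKM (130 reads) in the same library and between 0.246 and 7.34 FPKM (1 to 35 reads) elsewhere. Both are short genes of 360 and 294 bases with a second locus of the same symbol, so their assignment of reads is uncertain, and their log2 fold changes of -1.44 (SE 1.13) and -0.74 (SE 1.23) turned to 0.43 and 0.70 without that library. Mrpl36 also turned to 0.15 without sham LV replicate 3, where it had 1 read.

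**Figure D4:**
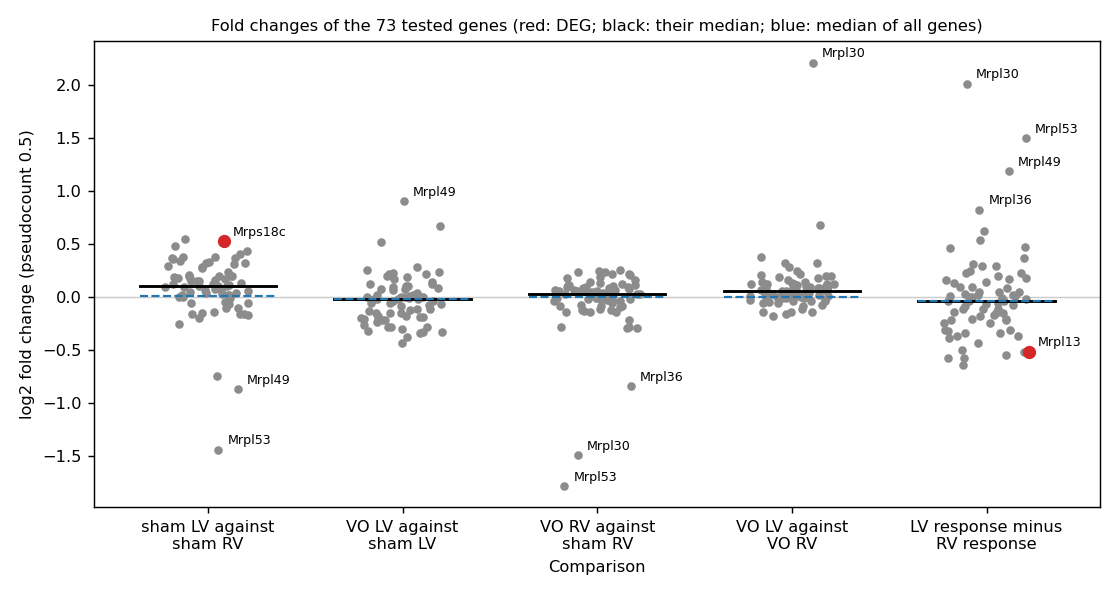
Log2 fold changes of the 73 tested members in the 5 comparisons (points, spread sideways at random), with DEGs in red, the members' median as a black line and the median of all tested genes as a dashed blue line. Mrps18c and Mrpl13 are the only red points, and the members' medians lie between -0.03 and 0.11.

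To see the response of the LV to VO, VO LV was compared with sham LV. No member was a DEG, against 0.0935% of all tested genes (13 genes). This background was 0 genes without sham LV replicate 1 or 2 or any 1 of the VO LV libraries, 2 to 5 without any 1 of the sham RV libraries, and 307, 174 and 554 without sham LV replicate 3, VO RV replicate 1 and VO RV replicate 3, with 0 members each time. The median log2 fold change was -0.02, with 30 of 73 higher, and the median over all tested genes was also -0.02. At the unadjusted threshold, limma passed 2 members (2.74%), Mrpl49 and Mrps21, against 15.7% of all tested genes. It passed 5, 1 and 6 members without sham LV replicate 1, 2 and 3, against 15.5%, 10.1% and 19.4% of all tested genes, and 4 without VO LV replicate 1, against 15.2%. The groups did not overlap in 20 members (27.4%), 7 higher and 13 lower in VO, against 32.4% of all tested genes. The endothelial, fat and fibroblast markers were also lower in VO LV without overlap, at 339 to 384, 536 to 673 and 2023 to 2498 FPKM, against 2546 to 2736 FPKM of the last in sham LV, and their part in these values was not tested.

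Mrpl49 had the highest fold change of this comparison, with 15.3, 10.3 and 18.8 FPKM in VO LV against 8.56, 5.21 and 9.22 in sham LV (log2 0.91, SE 0.26, limma adjusted p = 0.0847). The lowest VO value lay above the highest sham value. Mrps21 had the lowest, with 70.6, 66.5 and 62.8 FPKM in VO LV against 79.4, 108 and 86.3 in sham LV (log2 -0.44, SE 0.15, limma adjusted p = 0.129). These groups did not overlap either. Next to them, Mrpl1 and Mrpl30 had log2 fold changes of 0.67 (SE 0.35) and 0.52 (SE 0.72), and Mrps28 and Mrpl52 of -0.38 (SE 0.17) and -0.34 (SE 0.15), with limma adjusted p-values between 0.196 and 0.699. Without sham LV replicate 2, Mrps28, Mrpl52 and Mrpl1 were at -0.17, -0.12 and 0.33, and Mrpl1 was at 0.32 without VO LV replicate 1 and Mrpl30 at 0.24 without VO LV replicate 2. Mrpl13, a large-subunit protein with a bacterial relative, had the smallest adjusted p of the members here, with 64.6, 66.6 and 64.1 FPKM in VO LV against 84.5, 86.9 and 75.2 in sham LV (log2 -0.33, SE 0.09, limma adjusted p = 0.0796). All VO values lay below all sham values.

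In the RV, VO RV was compared with sham RV, and no member passed the test. No member was a DEG, nor was any other of the 13910 tested genes (0%), and at the unadjusted threshold limma passed 0 members against 4.91% of all tested genes. It passed 1 and 2 members without sham RV replicate 1 and 3, against 3.42% and 6.96% of all tested genes, and 3 and 2 without VO RV replicate 1 and 2, against 8.36% and 7.55%. The median log2 fold change was 0.03, with 41 of 73 higher, against 0.00 over all tested genes. It was 0.15 without VO RV replicate 2 and -0.06 without sham RV replicate 1, and also fell below 0 without VO RV replicate 1 (-0.07) or 3 (-0.02). The groups did not overlap in 3 members (4.11%), against 12.5% of all tested genes. These were Mrpl52, higher in VO, and Mrpl3 and Mrps2, lower. Smooth muscle markers (4 genes) were higher in VO RV without overlap, at 209 to 337 FPKM against 144 to 205, as were proliferation markers (6 genes), at 117 to 134 against 94.7 to 104. Their part in these values was not tested.

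Mrpl3, a protein near the peptidyl transferase centre whose human counterpart is a gene of inherited mitochondrial cardiomyopathy, had 53.0, 41.1 and 42.8 FPKM in VO RV against 54.1, 54.4 and 58.6 in sham RV (log2 -0.29, SE 0.11, limma adjusted p = 0.56). Mrps2 had 7.34, 6.41 and 7.09 FPKM against 7.60, 9.27 and 9.04 (log2 -0.29, SE 0.094, limma adjusted p = 0.542). In both genes, VO RV replicate 1 lay close to the lowest sham library. Mrps18c and Mrps11, a platform protein of the small subunit, had the highest log2 fold changes, 0.25 (SE 0.12) and 0.25 (SE 0.13), which were 0.13 without sham RV replicate 1 and 0.12 without VO RV replicate 3. The lowest were again Mrpl53, with -1.78, and Mrpl36, with -0.84, both through sham RV replicate 2, and Mrpl30.

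Mrpl30 was nearly lost from 2 libraries. It had 5.57, 0.152 and 0.104 FPKM in VO RV, on 243, 8 and 5 reads, against 2.19, 2.86 and 5.42 FPKM in sham RV, on 106, 119 and 236 reads. In the LV groups it lay between 3.18 and 8.62 FPKM. Mrpl30 overlaps Mitd1 on the other strand, which had 2.22, 2.72 and 3.63 FPKM in VO RV. The log2 fold change of Mrpl30 in VO RV against sham RV was -1.49 (SE 0.72, limma adjusted p = 0.605).

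Under VO, the LV and RV were then compared with each other. No member was a DEG, against 0.00719% of all tested genes (1 gene). At the unadjusted threshold, limma passed 1 member, Mrpl30, against 7.4% of all tested genes. It passed 3 without VO RV replicate 1, against 11.5% of all tested genes, and 2 without sham LV replicate 2 or VO LV replicate 2 or 3, against 5.55% to 7.62%. The log2 fold change of Mrpl30 was 2.21 (SE 0.72, limma adjusted p = 0.317), and without VO RV replicate 1, which leaves the 2 libraries with under 10 reads, it was 3.30 (limma adjusted p = 0.0108). The median of the 73 was 0.06, with 53 higher in the LV, against 0.01 over all tested genes; without VO RV replicate 2 the median was -0.06 and without VO RV replicate 1 it was 0.14. Cardiomyocyte markers were also higher in VO LV without overlap, at 20679.6 to 22919.6 FPKM against 14888 to 20609, as were skeletal muscle markers (4 genes, of which 2 had a mean under 1 FPKM), at 2644 to 3276 against 1507 to 2043. Their part in these values was not tested. The groups did not overlap in 5 members (6.85%), against 16.1% of all tested genes, with Mrpl3, Mrpl45, Mrps18a and Mrps2 higher in VO LV and Mrpl13 lower. Mrpl1 and Mrpl50 followed Mrpl30 with log2 fold changes of 0.68 (SE 0.35) and 0.38 (SE 0.13), and the lowest were Mrpl13 (-0.18, SE 0.09), Mrps21 (-0.16, SE 0.15) and Mrpl52 (-0.14, SE 0.15), none of which passed.

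Whether the 2 ventricles responded differently was tested as the LV response minus the RV response, which uses all 12 libraries and shares its groups with the comparisons above. Among the members, 1 was a DEG, against 4.19% of all tested genes (583 genes). The background was 0 genes without sham LV replicate 1 or 2, sham RV replicate 1 or VO LV replicate 2 or 3, 4 without sham RV replicate 2, and 240 and 111 without VO LV replicate 1 and VO RV replicate 3, whereas it was 1003 and 909 without VO RV replicate 1 and 2, with 4 and 3 members. At the unadjusted threshold, 10 members (13.7%) passed, against 23.1% of all tested genes. Without VO RV replicate 2, 20 members and 27.5% of all tested genes passed, and without sham RV replicate 3, 16 members and 24.7%. The median log2 difference was -0.03 over the members and -0.04 over all tested genes. The members' median was -0.16 without VO RV replicate 2, and turned to 0.066 without VO RV replicate 1 and to 0.038 without sham RV replicate 1.

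The DEG was Mrpl13, listed on chromosome 7 from 95288376 to 95310005 on the minus strand. Its levels were 84.5, 86.9 and 75.2 FPKM in sham LV, 64.6, 66.6 and 64.1 in VO LV, 59.5, 65.7 and 70.0 in sham RV, and 77.2, 67.5 and 76.9 in VO RV. The LV libraries thus lay lower under VO without overlap, whereas VO RV reached above sham RV in 2 of its 3 libraries. The response was -0.33 (SE 0.09) in the LV and 0.18 (SE 0.09) in the RV, and their difference was -0.51 (SE 0.13, limma adjusted p = 0.0484). Leaving out 1 library at a time gave differences between -0.58 and -0.45 and adjusted p-values between 0.0362 and 0.128, and the call was kept without sham LV replicate 3, sham RV replicate 3 or VO RV replicate 2 and lost without any 1 of the other 9. It was also lost with the replicate number as a block (limma adjusted p = 0.0965), all genes above 0 (0.0719), the gene-length trend removed (0.0719) and robust eBayes (0.0513). Mrpl13 overlaps Mtbp on the other strand, which had between 1.63 and 2.95 FPKM.

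The highest differences were those of Mrpl30 (2.01, SE 1.02), Mrpl53 (1.498, SE 1.599) and Mrpl49 (1.19, SE 0.36), the first 2 with limma adjusted p-values of 0.239 and 0.58. Without VO RV replicate 1, Mrpl30 was at 3.10 (limma adjusted p = 0.0152) and Mrpl49 at 1.38 (limma adjusted p = 0.0484). Without VO RV replicate 2, Mrps21 was at -0.81 (limma adjusted p = 0.0345) and Mrps18c at -0.65 (limma adjusted p = 0.0462). Of the other 9 past the unadjusted threshold, Mrps18c, Mrps21, Mrps11, Mrpl21 and Mrpl52 had negative differences, between -0.64 and -0.43, and Mrps2, Mrpl3, Mrpl50 and Mrpl49 had positive ones, between 0.46 and 1.19. Their limma adjusted p-values lay between 0.0671 and 0.172. Mrps18c had 30.7, 33.5 and 30.9 FPKM in VO LV and 33.3, 29.4 and 35.9 in VO RV, and these groups overlapped (difference of the responses -0.57, SE 0.16, limma adjusted p = 0.0671). Mrps2 showed the opposite order, with 8.05, 8.11 and 8.03 FPKM in VO LV and 7.34, 6.41 and 7.09 in VO RV (difference 0.46, SE 0.13, limma adjusted p = 0.0704). Mrpl3 had 44.7, 48.9 and 56.9 FPKM in sham LV and 54.2, 56.3 and 59.8 in VO LV, which overlapped (difference 0.48, SE 0.16, limma adjusted p = 0.103).

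**Figure D5:**
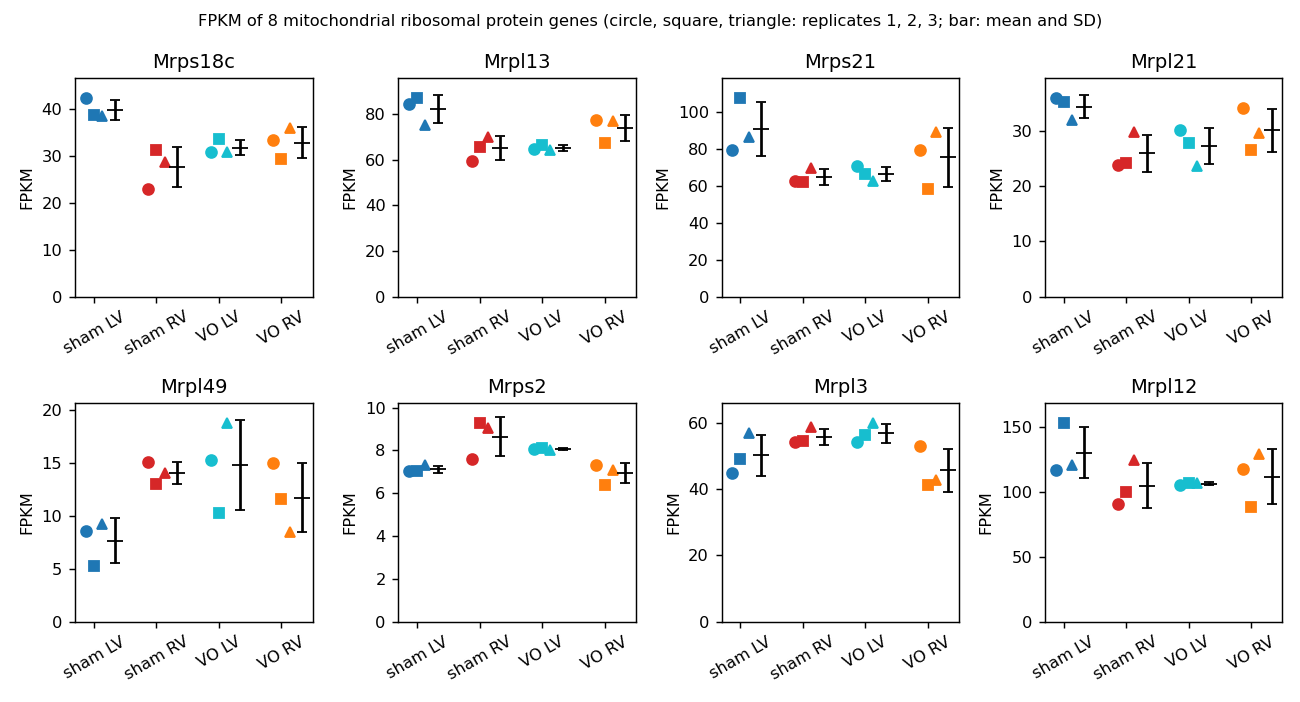
FPKM of 8 members in the 12 libraries by group, with circles, squares and triangles for replicates 1, 2 and 3 and bars for the mean and SD. Mrps18c, Mrpl13, Mrps21 and Mrpl21 have their highest mean in sham LV; Mrpl49 and Mrps2 have a lower mean in sham LV than in VO LV.

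The members below were picked for a known role, and none of them was a DEG. Between 0% and 4.19% of all tested genes were called in the 5 comparisons, so no call among so few members says little. Mrpl12 also binds the mitochondrial RNA polymerase, and it had 130.1 ± 19.7 FPKM in sham LV and 106 ± 1.03 in VO LV, and 105 ± 17.5 in sham RV and 112 ± 21.1 in VO RV (SD, n = 3). Mrpl44 and Mrps22, whose human counterparts are genes of infantile cardiomyopathy, had 24.8 ± 1.78 and 21.8 ± 3.38 FPKM in sham LV and 26.2 ± 0.922 and 25.1 ± 1.12 in VO LV. In sham RV they had 25.8 ± 3.01 and 24.3 ± 2.66 FPKM, and under VO 24.7 ± 2.16 and 22.9 ± 3.26. Their log2 fold changes lay between -0.16 and 0.30 in the 5 comparisons. Of the small-subunit proteins whose human counterparts are also disease genes, Mrps7 had 41.9 ± 1.74 FPKM in sham LV and 44.1 ± 2.58 in VO LV, and 41.6 ± 7.92 in sham RV and 43.7 ± 10.5 in VO RV. Mrps14, Mrps16 and Mrps34 had log2 fold changes between -0.17 and 0.18, and Mrps12 between 0.03 and 0.16. Mrps30, which sits in the large subunit, had 28.3 ± 5.62, 33.2 ± 4.85, 31.2 ± 1.78 and 31.4 ± 6.56 FPKM in the order sham LV, VO LV, sham RV and VO RV. Mrps36, the dehydrogenase component, had 37.5 ± 12.3, 37.7 ± 4.22, 33.6 ± 3.46 and 34.8 ± 9.49 FPKM in the same order.

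Proteins with a relative in bacterial ribosomes and those particular to mitochondria were compared side by side. The 45 genes with a bacterial relative had medians of 0.12, -0.05, 0.03, 0.03 and -0.04 in the 5 comparisons, taken in the order in which they are described above. The 27 without one had 0.11, -0.00, -0.01, 0.08 and 0.01. The 2 DEGs, Mrps18c and Mrpl13, both had a bacterial relative. The difference between the 2 classes was not tested.

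Mitochondrial ribosomal proteins that carry other names were outside the symbol rule. A list of 10 such genes and of Oxa1l, the inner membrane insertase that the ribosome docks to, was matched and tested but for Aurkaip1, and 0 were DEGs in any comparison by limma, with 0 also at the unadjusted threshold. Of all tested genes, 0% to 4.19% were DEGs in the comparisons, and 4.91% to 23.1% passed the unadjusted threshold. The list's medians were 0.20, -0.06, 0.00, 0.09 and -0.08 in the order above. These include Oxa1l, whose own log2 fold changes were -0.13, 0.22, -0.14, 0.24 and 0.36. Dap3, a small-subunit protein also known from apoptosis, had log2 fold changes between -0.08 and 0.11, Ptcd3 between -0.06 and 0.16, and Gadd45gip1 between -0.07 and 0.23. Chchd1 reached 0.38 (SE 0.13, limma adjusted p = 0.102) in sham LV against sham RV. The gene spelled mrpl11 in the table, which belongs to the stalk base, had 73.1 ± 4.04 and 71.2 ± 4.78 FPKM in sham and VO LV and 65.6 ± 8.05 and 65.2 ± 9.87 in sham and VO RV (SD, n = 3). Ict1 (Mrpl58), which rescues stalled ribosomes, had 89.6 ± 10.01 and 78.9 ± 6.31 FPKM in the LV and 73.9 ± 7.23 and 75.4 ± 14.9 in the RV.

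The other steps of mitochondrial gene expression also held no DEG by limma in any of the 5 comparisons. Of all tested genes, 3.86%, 0.0935%, 0%, 0.00719% and 4.19% were DEGs in the order above. The lists held 28 tested genes of ribosome assembly and rRNA modification, 18 translation factors and 19 mitochondrial aminoacyl-tRNA synthetases. They also held 24 genes of mitochondrial transcription and RNA stability, and the 13 proteins encoded by mitochondrial DNA. At the unadjusted threshold, 3 of 28, 7 of 18, 5 of 19, 2 of 24 and 0 of 13 passed in the difference of the responses, where 23.1% of all tested genes did, and no other comparison held more. The synthetases and translation factors had medians of 0.22 and 0.20 in that difference, against -0.04 over all tested genes. Gfm1, an elongation factor, had 33.3 ± 5.62 FPKM in sham LV and 45.7 ± 6.66 in VO LV, and 42.5 ± 3.59 in sham RV and 34.9 ± 3.51 in VO RV (difference 0.74, SE 0.20, limma adjusted p = 0.0601). Lrpprc, which stabilizes mitochondrial messages, had 33.5 ± 0.949, 43.3 ± 6.65, 40.7 ± 3.21 and 33.1 ± 3.60 FPKM in the same order and the smallest adjusted p of these lists (difference 0.65, SE 0.17, limma adjusted p = 0.0512). Tufm, Mtif2, Tfam and Polrmt had differences of 0.14, -0.17, -0.03 and -0.30, with limma adjusted p-values between 0.433 and 0.918.

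Finally, the members were set beside other gene groups of similar kind. The 90 cytosolic ribosomal proteins had medians of 0.25, -0.26, 0.17, -0.16 and -0.44 in the 5 comparisons, with 6, 0, 0, 0 and 4 DEGs. The 79 nuclear-encoded respiratory chain genes had 0.25, -0.11, -0.00, 0.11 and -0.13, with 0, 0, 0, 0 and 2 DEGs. Of all tested genes, 3.86%, 0.0935%, 0%, 0.00719% and 4.19% were DEGs in the same order. The members' medians lay closer to 0 than those of the cytosolic ribosomal proteins in each comparison. The 2386 tested genes under 1000 bases had medians of 0.19, -0.15, 0.07, -0.03 and -0.24, with the sign of the members' median in each comparison but VO LV against VO RV. The members had a median length of 1110 bases, against 2166 over all tested genes. After removal of each library's trend with gene length, the members' medians were 0.03, 0.02, -0.01, 0.08 and 0.05, and those of VO against sham in either ventricle and of the difference changed sign. Mrps18c was then at 0.38 (limma adjusted p = 0.0606) and Mrpl13 at -0.36 (limma adjusted p = 0.0719), and no member was a DEG.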

How the data were processed

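The processed table held FPKM of 12 libraries from the LV- and RV-free wall of SD rats. Reads were aligned with HISAT2 2.0.5 and counted per gene with featureCounts 1.5.0-p3 by the authors, who converted them to the deposited FPKM; libraries were made from poly-A mRNA, and the genome build and strand setting are not given in the sources used here. Multiplied by gene length, 100% of the deposited values under 200 reads were whole multiples of 1 step per library (tolerance 0.02). This gave back 14121713 to 16871371 reads on genes per library. No column of values was without a sample.

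The deposited FPKM also carry a scaling between libraries that the sources used here do not describe. Values were rescaled by median-ratio size factors and tested as log2(FPKM + 0.5). The size factors lay between 1.002 and 1.007, so that rescaling changed the values little. The 13910 genes with a mean of at least 0.5 FPKM entered 1 limma model (limma 3.58.1 in R 4.3.3, with an intensity trend) that held all 4 groups. P-values were adjusted over all of them by the Benjamini-Hochberg method. DEGs had to change more than 1.3-fold at an adjusted p below 0.05. Since the spread is estimated once, each of the 12 libraries bears on each test. The exact permutation test of single members (two-sided) has a smallest p of 0.10. The fit was checked on simulated data.

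The members, gene lists and markers were chosen with earlier results of these data known. The list of members under other names was extended by 4 symbols, and aliases were matched, after the table's names were seen. The genes named are DEGs, the 3 largest fold changes in either direction per comparison, the 5 highest and 5 lowest members, and members of known role; others appear because their groups did not overlap or their unadjusted p was under 0.05, and were named after their values were seen. The alternatives were FPKM not rescaled, quantile normalization, pseudocounts of 0.1 and 1, other filters on low values, protein-coding genes only, separate groups, robust eBayes, array weights, a threshold without fold change, voom on the recovered reads, the gene-length trend removed (lowess, span 0.3), the replicate number as a block, and each of 12 libraries, or 2 together, left out. A covariate for atrial markers was added after seeing the data. Promoters came from RefSeq (GRCr8); protein sequences were not used here.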

Additional observations from a re-analysis of the deposited data

Results flagged for a closer look

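With all libraries, Mrpl13 was the 1 member that passed a test of the 2 responses against each other. The LV response to VO minus the RV response was -0.51 on the log2(FPKM + 0.5) scale (SE 0.13, limma adjusted p = 0.0484, but over 0.05 without any 1 of 9 of the 12 libraries and 0.0965 with the replicate number as a block), with all 3 VO LV libraries below all 3 sham LV libraries and 2 of 3 VO RV libraries above all 3 sham RV libraries. It was 1 of 73 members called (1.37%), against 4.19% of all tested genes. Groups of 3 libraries were not tested for single outlying libraries.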

How the results depend on the processing

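Of 830 values of single members under an alternative, 788 kept their direction and side of the threshold, 27 no longer passed, 9 newly passed and 6 changed sign. These values belong to 31 results, of which only 2 passed to begin with. The 2 were Mrps18c in sham LV against sham RV and Mrpl13 in the difference of the responses. All 27 losses were theirs, so the 788 say little about how firm these 2 calls are. Those 6 were Mrpl53 and Mrpl36 with 1 library left out: Mrpl36 in sham LV against sham RV was 0.15 without sham LV replicate 3, and without sham RV replicate 2 Mrpl53 and Mrpl36 were 0.43 and 0.70 in that comparison, 0.088 and 0.60 in VO RV against sham RV, and Mrpl53 was -0.37 in the difference of the responses. With each library left out in turn, Mrpl53 ran from -2.41 to 0.43, from -2.75 to 0.088 and from -0.37 to 2.47 in these 3 comparisons, and Mrpl36 from -1.54 to 0.70 and from -1.60 to 0.60 in the first 2.

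In sham LV against sham RV, 1 DEG among the members became 0 with all genes above 0, only the groups compared, the gene-length trend removed or sham RV replicate 1 and VO RV replicate 2 left out together (537 genes called over all became 8, 314, 469 and 7), and 4 with array weights (1321). Unadjusted, 6 became 2 with the gene-length trend removed (2350 genes over all). In the difference of the responses, 1 became 0 with all genes above 0, robust eBayes, the gene-length trend removed or both libraries left out (583 over all became 21, 568, 393 and 2), 2 with array weights (1047) and 4 with the atrial covariate (1264). The unadjusted count of 2 in VO LV against sham LV became 1 with array weights or the gene-length trend removed (unadjusted, 2185 genes over all became 1978 and 2032). Over all tested genes, this comparison called 13, but 341 with voom, 704 with array weights, 262 with protein-coding genes, 183 at a mean of at least 1 FPKM, 119 with only the groups compared, 56 with a pseudocount of 0.1, 333 with the atrial covariate, 5 with all genes above 0 or the gene-length trend removed, 3 with the block and 2 without both libraries, with no member in any. In VO RV against sham RV, the unadjusted count of 0 members became 1 with a pseudocount of 0.1 or voom (683 genes over all became 718 and 740). For VO LV against VO RV, the unadjusted count of 1 member became 2 without rescaling, with a pseudocount of 0.1, array weights, the gene-length trend removed or voom. It became 0 without both libraries. Over all tested genes, the 1030 at this unadjusted threshold became 1032, 1077, 971, 1012, 1188 and 1179 in the same order. The cause was not tested.

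Leaving out each library in turn gave 0 to 2 DEGs in sham LV against sham RV (unadjusted 4 to 18, against 12.6% to 21.4% of all tested genes). There were 0 in VO LV against sham LV (unadjusted 1 to 6, against 9.81% to 19.4%) and in VO RV against sham RV (0 to 3, against 2.9% to 8.36%). VO LV against VO RV had 0 to 1 (unadjusted 1 to 3, against 5.23% to 11.5%). The difference had 0 to 4 (unadjusted 9 to 20, against 16.5% to 27.5%), and its median ran from -0.16 to 0.066. The 1 in VO LV against VO RV was Mrpl30, without VO RV replicate 1.

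With the replicate number as a replicate block, both counts of 1 became 0, and those over all tested genes fell from 537 to 3 and from 583 to 1 (Mrps18c 0.53, limma adjusted p = 0.0809; Mrpl13 -0.51, 0.0965). Same-numbered libraries of 1 treatment correlated at -0.22 to 0.12, over 0.1 in 1 of 6, so the numbers were not taken to pair them. A fit of only the groups compared could not be made for the difference, which uses all 4. With 3 libraries a group, a member that missed the threshold is not shown to be unchanged.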
